A study of Mus musculus with 7 samples.

Results

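The 8 genes described here encode core proteins of the Hedgehog pathway: the ligands Dhh and Ihh, the receptor Ptch1, the signal transducer Smo, the transcription factors Gli1, Gli2 and Gli3, and the ligand-binding inhibitor Hhip. They were taken by name from the 21755 protein-coding genes on the autosomes and the X chromosome, and all 8 were found in the annotation. ERβ (estrogen receptor beta, a nuclear receptor and the product of Esr2) was precipitated from cross-linked ovarian chromatin with the monoclonal antibody PPZ0506, and the DNA recovered with it was sequenced (ChIP-seq). Files of 3 ERβ ChIP libraries and 2 libraries of chromatin sequenced without the antibody step (input) were analysed, all from ovaries of female C57BL/6J mice that express ERβ endogenously. Each ChIP library came from pooled ovaries of several mice between a few weeks and a few months of age, not staged for the estrous cycle, so cell types and cycle stages are mixed in every value. The 2 knockout ChIP samples of the series were not analysed here, so whether the antibody's signal at these sites needs ERβ was not tested.

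When no ligand is present, the membrane protein Ptch1 keeps Smo inactive. Binding of a Hedgehog ligand to Ptch1 lifts this block, and Smo then leads, through the primary cilium, to activation of the Gli transcription factors, whose target genes include Gli1, Ptch1 and Hhip themselves. In the ovary, granulosa cells of growing follicles are known to make Dhh and Ihh, and the surrounding theca cells are known to respond to them. ERβ is known to be expressed mainly in granulosa cells. It binds chromatin at the estrogen response element (ERE), in which GGTCA and TGACC stand 3 bases apart, and tracks of this kind show where the receptor was held, not whether a gene was expressed.

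ERβ-binding sites were found at 4 of the 8 genes, with 1 site each at Ihh, Gli1, Gli2 and Dhh and none at Ptch1, Smo, Gli3 and Hhip. A site was a 200-bp window in which at least 2 of the 3 ChIP libraries had more than 4 times the mean signal of both inputs, anywhere from 50 kb before to 50 kb after the gene body, in the mouse assembly GRCm38 (mm10). All 3 ChIP libraries exceeded 4-fold at each of the 4 sites, and at 65.8% of the 4870 sites of the genome. The share of all protein-coding genes with at least 1 site by the same rule was 27.5%, and with 8 genes the count of 4 was not tested against it. Long loci hold more sites: 25.5% of the loci of up to 200 kb had a site, against 3 of the 6 genes described here in that class, and 42.9% of the longer loci, against 1 of 2 (Gli2 with a site, Gli3 without). In 200-bp tiles laid end to end over the 8 loci, 7 of 7469 exceeded 4-fold in at least 2 ChIP libraries, while 0.0455% of all tiles in the genome did. Within the 8 loci, 7 to 9 tiles passed in each single ChIP library. In the genome, 4949, 7253 and 6889 of 12500015 tiles passed in ChIP libraries 1, 2 and 3. The inputs set against each other gave 0 tiles with Input 1 over 4 times Input 2 and 2 tiles the other way round, both at Smo. The genome counts for these were 59 and 98 tiles.

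**Figure D1:**
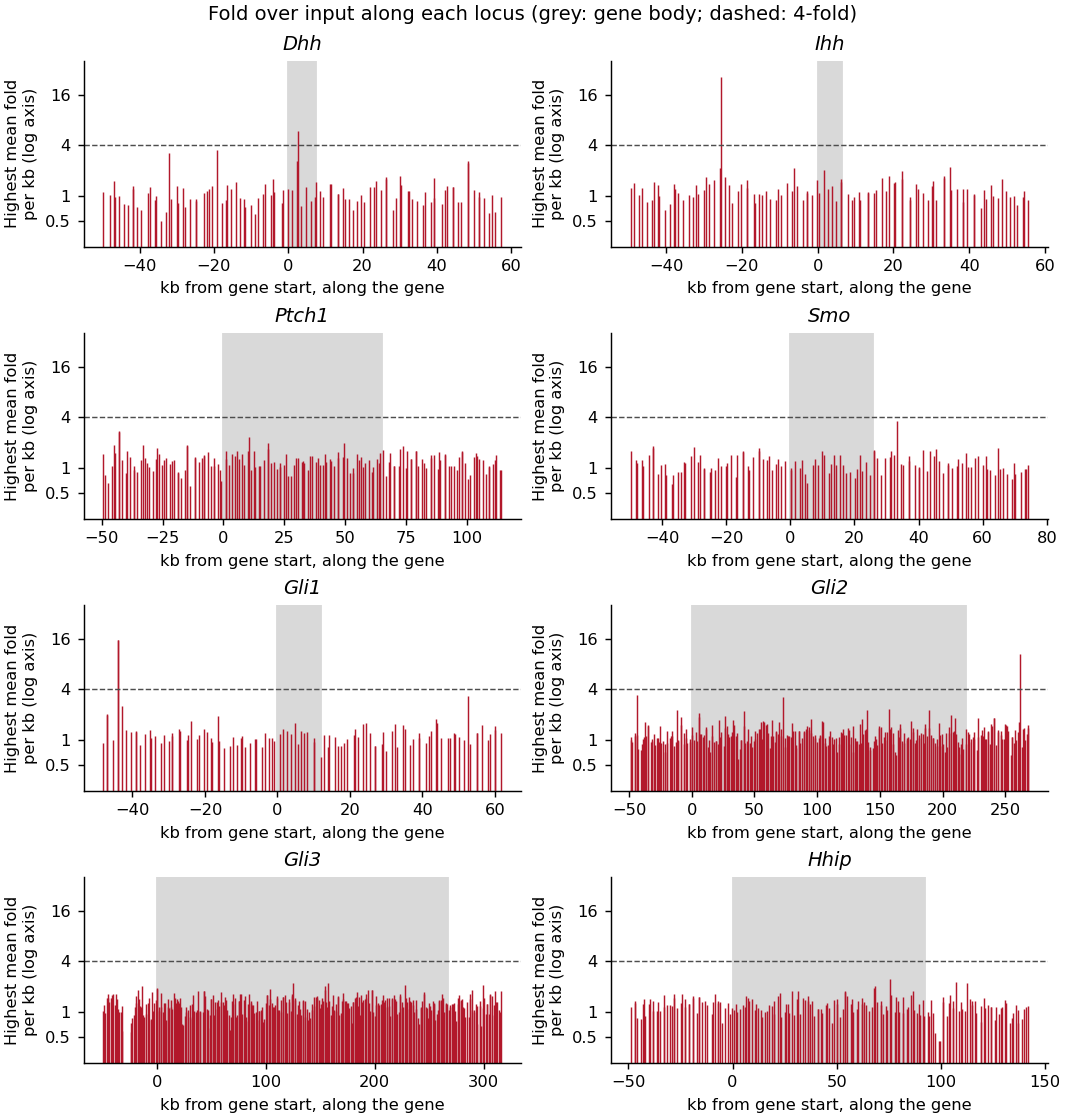
The 8 panels show the highest mean fold of the 3 ChIP libraries over input among 200-bp windows in each kb (vertical log axis) against the distance in kb from the gene's start, along the direction of transcription. Grey marks the gene body, the dashed line is 4-fold, and values under 0.25 are not drawn. Outside the gene body, the Ihh and Gli2 panels each have 1 line over the threshold, at 25.9 and 10.5, and the Gli1 panel has 2 next to each other, at 15.6 and 15.3, which belong to the same site. The Dhh panel has 1 line over it inside the gene body, at 5.91, and the panels of Ptch1, Smo, Gli3 and Hhip have none.

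The sequences of the 4 site windows are shown because they carry the sites' identity and because the ERE content differed between them. Each is 200 bp of GRCm38 as given by RefSeq, written 5′ to 3′ on the plus strand of the chromosome. The 13 bases in capitals are the closest match to the ERE in the window, which has 10 fixed bases.
Ihh site, chr1:74977011-74977210: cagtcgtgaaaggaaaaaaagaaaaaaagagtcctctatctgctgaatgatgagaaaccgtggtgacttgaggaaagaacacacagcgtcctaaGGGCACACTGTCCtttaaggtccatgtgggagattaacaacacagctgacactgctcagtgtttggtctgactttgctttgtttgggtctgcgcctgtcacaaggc
Gli1 site, chr10:127385861-127386060: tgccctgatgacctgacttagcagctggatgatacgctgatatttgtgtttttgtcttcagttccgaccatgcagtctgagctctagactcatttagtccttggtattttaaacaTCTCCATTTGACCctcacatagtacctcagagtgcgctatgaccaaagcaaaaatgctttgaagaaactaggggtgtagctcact
Gli2 site, chr1:118791811-118792010: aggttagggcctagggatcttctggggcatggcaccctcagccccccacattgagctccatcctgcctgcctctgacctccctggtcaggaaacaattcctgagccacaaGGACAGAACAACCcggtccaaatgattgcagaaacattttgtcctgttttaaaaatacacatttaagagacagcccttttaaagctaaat
Dhh site, chr15:98895811-98896010: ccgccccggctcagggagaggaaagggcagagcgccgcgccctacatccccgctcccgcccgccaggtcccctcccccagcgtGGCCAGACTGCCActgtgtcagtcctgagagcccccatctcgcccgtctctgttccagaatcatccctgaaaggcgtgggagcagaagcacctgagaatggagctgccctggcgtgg
The Ihh match lay at the exact centre of the window and had 2 mismatches in the 10 fixed bases. The other three windows had 3 mismatches at best, with the match 21 bp (Gli1), 16 bp (Gli2) and 11 bp (Dhh) from the centre. A match with at most 2 mismatches was present in 67.9% of the 4870 sites of the genome and in 6.68% of all 200-bp tiles, so 1 of the 4 windows held an ERE by that limit. At most 3 mismatches were found in 94% of the sites and in 42% of all tiles. The single word GGTCA, on either strand, occurred 3 times in the Gli1 window and 2 times in the Gli2 window and was absent from the Ihh and Dhh windows, against 84.8% of the sites and 26.5% of the tiles with at least 1. GGTCA is part of the ERE and of the NR5A word, so these counts overlap. On both strands, none of the 4 windows held the NR5A word CAAGGTCA (11.6% of sites, 1.09% of tiles), a GATA word AGATAA or TGATAA (29.7%, 24.1%), an AP-1 word TGACTCA or TGAGTCA (6.65%, 3.11%) or the Gli word GACCACCCA (0.103%, 0.127%).

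The ligand gene Ihh had the strongest site among the 8 genes. The mean signal over the window was 15.1, 22.3 and 22.4 in ChIP libraries 1, 2 and 3 and 0.671 and 0.87 in the inputs. Every ChIP library lay far above both inputs, and libraries 2 and 3 were nearly equal. Fold over input was 25.9 ± 5.41 (SD, n = 3), and 2.24% of the 4870 sites in the genome, 109 in number, were as strong or stronger. The site lay 25.4 kb upstream of the Ihh start, in intron 2 of 4 of a transcript of Nhej1, which encodes a DNA repair factor, and the nearest start of a protein-coding transcript was that of Ihh. Introns of Nhej1 are known to hold enhancers of Ihh in the developing skeleton. The signal peaked at 17.97, 26.9 and 27.3 and was 210, 220 and 210 bp wide at 50% of its height above the surroundings in ChIP libraries 1 to 3.

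The signal of the Ihh site was 17.9 to 21.9 times the mean of the surrounding 10 kb in the ChIP libraries and 1.36 and 1.74 times in the inputs. The sites outside the Ihh locus with the most similar signal across the 5 libraries were those of Hao2 and Hsd3b1 (mean fold 26.0), Izumo2, Myh14 and Zfp473 (26.0) and Mark1 (21.8), where genes named together share a site. Likeness was the Euclidean distance of log2 signal over the 5 libraries, at 0.29, 0.304 and 0.331, respectively. Ranked by the strongest site in the locus, 199 protein-coding genes, 0.915% of all, equalled or exceeded Ihh.

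The site of the other ligand gene, Dhh, was the one inside its own gene, and its fold was the lowest of the 4 with input floored at the genome mean. Its window gave 4.64, 5.32 and 5.38 in ChIP libraries 1 to 3 and 0.841 and 0.89 in the inputs. The ChIP libraries lay close together and all above the inputs. Fold over input was 5.91 ± 0.475 (SD, n = 3), and 54.1% of the sites in the genome were as strong or stronger. The window lay 2.63 kb downstream of the Dhh start, in intron 1 of 2 of the gene, and 1.37 kb upstream of the start of a transcript of Rhebl1, which encodes a small GTPase and was the nearest protein-coding start. It also lay within 1 kb past the end of a transcript of Gm49442. At the same relative height the signal was 370, 330 and 440 bp wide in the 3 libraries, the widest of the 4 sites in each library. The window was 68% G and C, against 43.5 to 48.5% in the other three.

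Gli1, the transcription factor gene whose own expression is widely used as a readout of the pathway, had the second strongest site. Signal was 6.88, 8.13 and 12.1 in ChIP libraries 1 to 3 and 0.709 and 0.453 in the inputs. The ChIP values spread more than at Dhh, and the lowest of them was still far above both inputs. Fold over input was 15.6 ± 4.7 (SD, n = 3), with 8.5% of the sites in the genome as strong or stronger. The site lay 44 kb upstream of the Gli1 start, in intron 1 of 26 of R3hdm2, and the nearest protein-coding start, 4.35 kb away, belonged to another R3hdm2 transcript. The Gli1 locus as defined here overlaps 8 other protein-coding genes, the most of the 8 loci, and nothing used here other than position assigns the site to Gli1. A second, lower rise about 1 kb from the site centre had signal of 1.08, 1.86 and 2.2 in the ChIP libraries and 0.639 and 0.7 in the inputs, a fold of 2.56 ± 0.859 (SD, n = 3).

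Gli2, which encodes the main activator among the Gli proteins in many tissues, had a site beyond its 3′ end. Signal was 4.7, 4.25 and 2.97 in ChIP libraries 1 to 3 and 0.46 and 0.3 in the inputs. Library 3 was the lowest here, while it was the highest at the other three sites. Fold over input was 10.5 ± 2.36 (SD, n = 3), and 19.6% of the sites in the genome were as strong or stronger. The input mean of 0.38 was just above the genome mean (0.37 and 0.367 in the inputs), the floor to which lower input was raised. The floor therefore did not act here, but a higher floor lowers this fold. With the floor at 2 times the genome mean, it was 5.41 ± 1.3 (SD, n = 3), below the 5.91 of Dhh, and 2 libraries passed 4-fold. The window was intergenic, 42.2 kb past the end of the gene and 262 kb from its start, and the nearest protein-coding start was that of Tfcp2l1, a transcription factor gene, at 164 kb. No other protein-coding gene overlaps the Gli2 locus. The signal was 190, 200 and 180 bp wide at that height, the narrowest of the 4 sites.

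**Figure D2:**
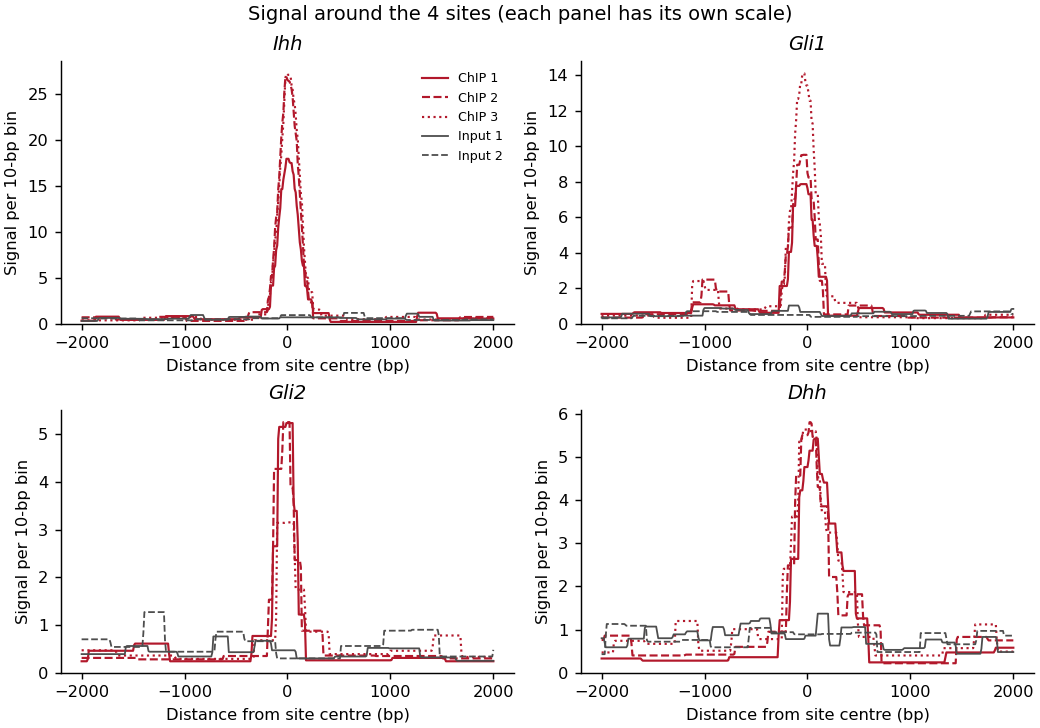
Signal per 10-bp bin (vertical axis, separate scale in each panel) against the distance in bp from the centre of each of the 4 sites, with the 3 ChIP libraries in red and the 2 inputs in grey. Each red curve has its highest summit close to the centre, from 3.15 in library 3 at Gli2 to 27.3 in library 3 at Ihh, the Gli1 panel has a lower rise about 1 kb from the centre, and the grey curves stay near 1 or below in all panels apart from single steps.

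The site rule needs at least 2 ChIP libraries over 4-fold, so by that rule none of the 4 sites could rest on 1 ChIP library. The track names fall into 2 sets, with ChIP 1 and Input 1 in one and the remaining libraries in the other, and each ChIP library was therefore also set against the input of its own set. Against that input, fold was 22.6, 25.6 and 25.7 for ChIP libraries 1 to 3 at Ihh. It was 9.71, 17.96 and 26.7 at Gli1, 10.2, 11.6 and 8.1 at Gli2 and 5.52, 5.98 and 6.05 at Dhh, so all 12 values were over 4. The windows were chosen for their fold, so these values are a description, and an exact permutation test of 3 libraries against 2 cannot give a one-sided p below 0.1.

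The receptor gene Ptch1 and the inhibitor gene Hhip, known targets of the pathway, had no window over the threshold in more than 1 ChIP library. The strongest Ptch1 window had 0.729, 1.48 and 1.56 in ChIP libraries 1 to 3 against 0.378 and 0.547 in the inputs. All 3 ChIP values were above both inputs, at a fold of 2.71 ± 0.987 (SD, n = 3), 42.8 kb upstream of the start. The strongest Hhip window, in intron 11 of 12 of the gene, had 1, 2.61 and 0.884 in ChIP libraries 1 to 3 and 0.826 and 0.381 in the inputs. The high value in library 2, 4.33-fold over input, was not shared by the other two, and the mean fold was 2.48 ± 1.6 (SD, n = 3).

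The transducer gene Smo came closest to the threshold among the genes without a site. Its strongest window, 33.4 kb downstream of its start and near the end of a transcript of the neighbouring gene Ahcyl2, had 2.5, 2.52 and 5.13 in ChIP libraries 1 to 3 and 0.973 and 0.875 in the inputs. Library 3 alone passed 4-fold, at 5.55, and the mean fold was 3.66 ± 1.64 (SD, n = 3). With a single input as the reference, a Smo window passed in 2 libraries, 33.5 kb from the start against Input 2 and 13.6 kb from it against Input 1. At the latter, Input 2 itself stood at 3.31 and Input 1 at 0.374, so that call depends on which input is used. The transcription factor gene Gli3, known mostly as a repressor of Hedgehog targets, had its strongest window in intron 3 of 14, with 1.43, 1.95 and 1.24 in the ChIP libraries and 0.646 and 0.74 in the inputs, a fold of 2.23 ± 0.529 (SD, n = 3).

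**Figure D3:**
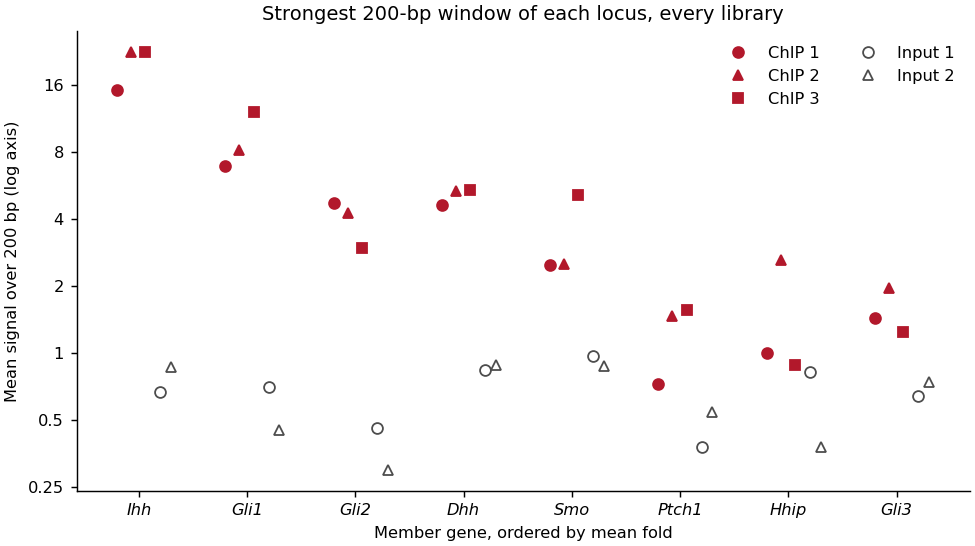
Mean signal over the strongest 200-bp window of each of the 8 loci (vertical log axis) in every library, with filled red symbols for ChIP libraries 1 to 3 and open grey symbols for the 2 inputs, ordered by mean fold. The lowest ChIP point of Ihh, at 15.1, is above every ChIP point of the other genes, and ChIP and input points touch at Hhip, where Input 1 is at 0.826 and ChIP 3 at 0.884.

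Several further windows lay just below the threshold. The second windows of Dhh (fold 3.47 ± 0.977, at the promoter of Lmbr1l), Gli2 (3.47 ± 1.69, 43.4 kb upstream) and Gli1 (3.33 ± 0.874, at the promoter of Mbd6; SD, n = 3 each) passed 4-fold in 1 ChIP library. Just outside the 50 kb limit, 52.7 kb upstream of Gli2 at chr1:119106201-119106400, a window had 1.94, 3.21 and 4.62 in ChIP libraries 1 to 3 and 0.36 and 0.458 in the inputs, a fold of 7.96 ± 3.28 (SD, n = 3), over 4 in all 3 libraries. With 10 kb on each side in place of 50 kb, the Dhh site was the 1 site that remained.

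EREs close to the consensus were present in all 8 loci and none of them had ERβ signal above the threshold. There were 51 matches with at most 1 mismatch, from 3 at Dhh to 14 at Gli3, and 0 of the 51 exceeded 4-fold in at least 2 ChIP libraries, against 2.41% of the 67632 such matches in the genome. With 51 matches, a count of 0 was near the genome's share. Mean fold at the 51 ran from 0.389 to 1.64 with a median of 1.01, and the highest value in a single library was 2.37. The 2 matches without any mismatch are shown with 10 bases on each side and the match in capitals, since these letters alone are the textbook element.
Smo locus, chr6:29789669-29789681: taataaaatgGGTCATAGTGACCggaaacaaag
Hhip locus, chr8:79951937-79951949: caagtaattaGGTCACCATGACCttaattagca
The match in the Smo locus lay in intron 1 of 16 of Ahcyl2, 54.2 kb downstream of the Smo start. Its 200-bp window had 0.742, 0.516 and 0.31 in ChIP libraries 1 to 3 and 0.5 and 0.37 in the inputs, and the groups overlapped. The match in the Hhip locus was intergenic, 106 kb from the Hhip start, with 0.502, 0.334 and 0.41 in the ChIP libraries and 0.22 and 0.32 in the inputs, where the lowest ChIP value barely exceeded the higher input. In the genome, 12.5% of the 2340 matches without mismatch exceeded 4-fold in at least 2 ChIP libraries, so a perfect element without a site was the more common case.

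**Figure D4:**
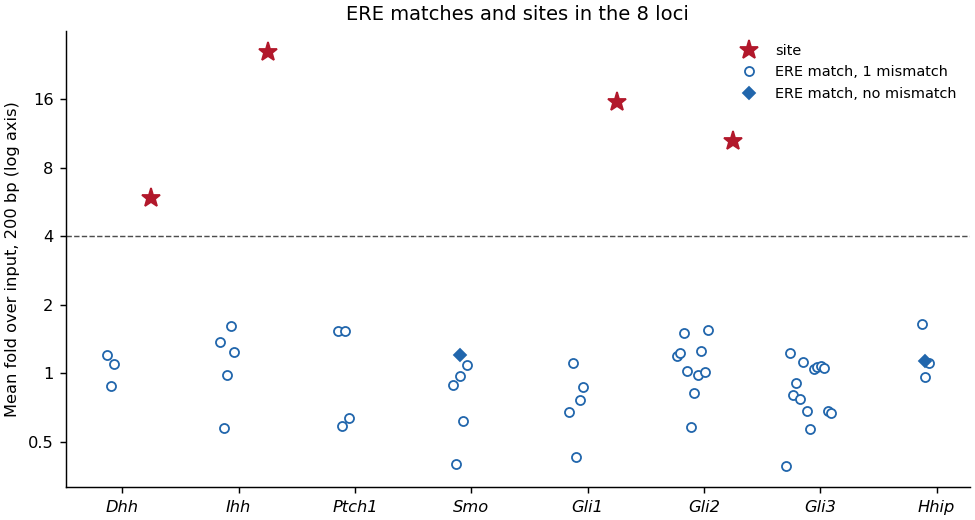
Mean fold of the 3 ChIP libraries over input in 200 bp (vertical log axis) at each ERE match with 1 mismatch (open circles) or none (filled diamonds) in the 8 loci, and at the 4 sites (stars), with the dashed line at 4-fold. All 51 matches lie between 0.389 and 1.64, below all 4 sites, which lie between 5.91 and 25.9.

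ChIP and input were next compared over fixed 1-kb windows, which were not chosen for their signal, with limma on log2(signal + 0.5) over all 2430674 windows of the genome and Benjamini-Hochberg adjustment. At the 8 loci, 3 of 1479 windows were higher in ChIP at an adjusted p below 0.05, against 0.0957% in the genome. The window with the Ihh site had 4.22, 5.98 and 6.44 in the ChIP libraries and 0.622 and 0.838 in the inputs, a difference of 2.28 ± 0.248 (SE) on the log2 scale (limma, adjusted p = 2.6e-07). The Gli1 site lies across the border of 2 windows, and both were called. The first had 2.3, 2.78 and 3.45 against 0.75 and 0.561, a difference of 1.52 ± 0.214 (SE; limma, adjusted p = 4.35e-05). The second had 1.11, 1.07 and 1.53 against 0.551 and 0.402, a difference of 0.83 ± 0.176 (SE; limma, adjusted p = 0.0348), and this call was lost without ChIP 2 (adjusted p = 0.128), without ChIP 3 (0.079), without Input 1 (0.309) and without Input 2 (adjusted p = 1).

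The Gli2 and Dhh sites also lay across a border between 1-kb windows, and none of these windows passed this test. Whether the position of the border mattered was not tested. The window with the larger part of the Gli2 site had 1.31, 1.28 and 0.902 in ChIP against 0.511 and 0.598 in input, a difference of 0.65 ± 0.176 (SE; limma, adjusted p = 0.342). No window at the 8 loci was lower in ChIP, against 0.00267% in the genome. At an unadjusted p below 0.05, 16 windows were higher and 83 lower among the 1479. In the genome, 46256 (1.9%) were higher and 80925 (3.33%) lower. Of the 83, 21 lay at Gli2 and 20 at Dhh, where 318 and 106 windows were tested. The median difference over the windows of a locus ran from -0.20 at Dhh to -0.003 at Gli3 on the log2 scale, and the genome median was -0.01.

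Promoters, from 1 kb before to 100 bp after the start, showed no difference between ChIP and input past the test at any of the 8 genes, while 0.076% of the 21064 promoters tested were higher and 0.0332% lower. The Ptch1 promoter had the largest difference of the 8, with 0.452, 0.475 and 0.476 in ChIP libraries 1 to 3 and 0.716 and 0.72 in the inputs. All 3 ChIP values lay below both inputs, by 0.33 ± 0.176 on the log2 scale (SE, limma, adjusted p = 0.423). This SE is drawn toward the trend over all promoters and is wider than the spread of the Ptch1 values within each group. The Ihh promoter had 0.703, 0.473 and 0.868 in ChIP against 0.606 and 0.918 in input, and the groups overlapped. The Dhh promoter had 0.6, 0.593 and 0.685 in ChIP against 0.768 and 0.674 in input, also with overlap. Differences at the 8 promoters ran from -0.33 to 0.13 with a median of -0.11, beside a median of -0.13 over all promoters. At an unadjusted p below 0.05 there were 0 of the 8, against 290 (1.38%) higher and 2303 (10.9%) lower of all promoters. When each library was divided by its own median, the differences at Dhh, Ihh, Gli2 and Hhip changed sign, so no direction is given for them.

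Signal averaged over whole loci did not differ between ChIP and input past the test at any of the 8 genes, and limma called 0% of the 21243 loci higher and 0% lower. At an unadjusted p below 0.05, 1473 (6.93%) were higher and 4823 (22.7%) lower. Among the 8, 0 had an unadjusted p below 0.05. The Ihh locus had means of 0.421, 0.449 and 0.496 in the ChIP libraries and 0.446 and 0.464 in the inputs, so a site of 25.9-fold was not visible in the mean over 106 kb. The Dhh locus had the largest difference, with 0.405, 0.491 and 0.519 in ChIP below 0.573 and 0.562 in input, at -0.14 ± 0.0632 on the log2 scale (SE; limma, adjusted p = 0.17). Without ChIP 3, which had the highest mean of the ChIP libraries at Dhh, Ihh, Smo, Gli1 and Gli2, the loci of Dhh, Smo, Gli1 and Gli2 were called lower in ChIP, at -0.17, -0.15, -0.15 and -0.12 on the log2 scale (limma, adjusted p from 0.00123 to 0.00934). In that fit 45.9% of all loci were called lower and 9.21% higher, so 4 of 8 was near the genome's share.

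**Figure D5:**
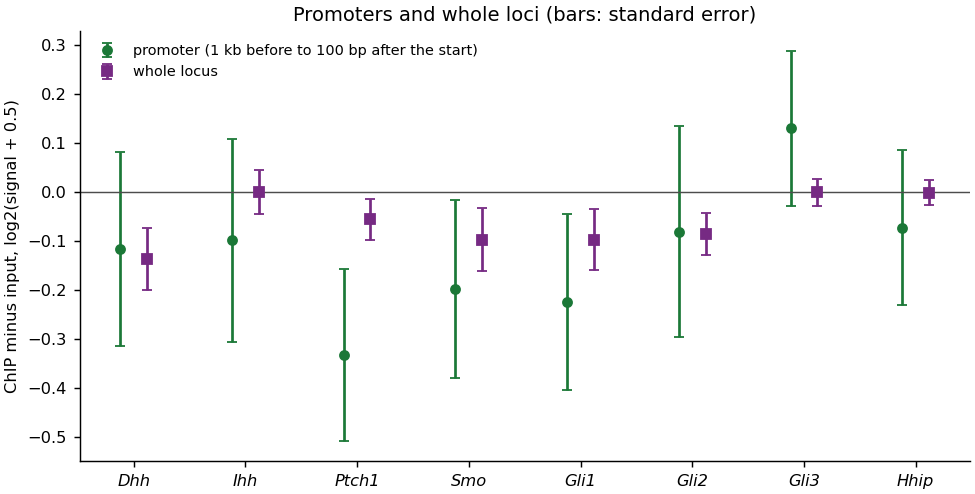
Difference of ChIP minus input in log2(signal + 0.5), with bars for the standard error from limma, at the promoter (circles) and over the whole locus (squares) of the 8 genes. The promoters run from -0.33 at Ptch1 to 0.13 at Gli3, and the whole loci from -0.14 at Dhh to about 0 at Ihh, Gli3 and Hhip.

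Of 16 further genes of the pathway, 2 had a site, each with 1, Scube2 and Lrp2, against 27.5% of all protein-coding genes. The 14 without a site were Shh, Hhat and Disp1 among the ligand and release genes, Boc, Cdon and Gas1 among the co-receptors, and all 8 cilium and cytoplasm genes (Sufu, Kif7, Stk36, Gpr161, Evc, Evc2, Prkaca and Spop). The Scube2 site, at a gene for a secreted protein that helps release Hedgehog ligands, lay in intron 14 of 21 of the gene. Signal was 2.42, 3.53 and 3.01 in ChIP against 0.796 and 0.52 in input, a fold of 4.53 ± 0.845 (SD, n = 3), over 4 in libraries 2 and 3. It held 1 match each to the NR5A, GATA and AP-1 words above, none of which occurred at the 4 sites, and 55% of the window was repeat sequence. The Lrp2 site, at a gene for an endocytic receptor that binds Shh, lay in intron 4 of 78 of the gene, with 3.08, 2.55 and 1.99 in ChIP against 0.528 and 0.629 in input. Fold was 4.39 ± 0.943 (SD, n = 3), over 4 in libraries 1 and 2, so both this site and that of Scube2 were just inside the threshold. The Lrp2 window held 1 match to the AP-1 words and none to the NR5A or GATA words. Strongest windows of the other 14 genes reached mean folds of 1.75 at Shh to 3.52 at Disp1. None of the 16 promoters and none of the 16 whole loci passed the limma test; at an unadjusted p below 0.05, 2 promoters (Sufu, -0.44, adjusted p = 0.348, and Stk36, -0.40, adjusted p = 0.371) and 7 loci were lower in ChIP and none was higher, against 10.9% of all promoters and 22.7% of all loci lower at that p.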

How the data were processed

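The files of 3 ERβ ChIP libraries and 2 inputs of mouse ovary were used, with groups and replicate numbers from the sample titles. The 2 knockout ChIP samples were not analysed here. Per the labels and the study's methods, reads were aligned by the authors to mm10 with STAR and worked with HOMER; versions are not given in the sources used here. Each deposited file is a track of coverage signal of 1 library, normalised by the authors to a common total. Signal times length came to 928 to 947.7 (in units of 1000000) per library, the genome mean was 0.362 to 0.37, and the median segment of constant signal was 481 to 486 bp in the ChIP libraries, 269 bp in Input 1 and 519 bp in Input 2; the inputs thus differ in resolution. Counts of tags cannot be read from the tracks, so no counting interval is given. The study reports the range of aligned reads for its ChIP samples, which was not used here.

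From these, signal was averaged in 10-bp bins and 200-bp windows on chromosomes 1 to 19 and X. Fold was each ChIP library over the mean of both inputs, and input below the genome mean was raised to that mean. Loci were gene bodies of GENCODE vM21 with 50 kb on each side; overlapping windows over the threshold were joined, and the window of highest mean fold gives the site its position. By this rule the genome held 4870 sites, 65.8% of them over 4-fold in all 3 libraries. ERE matches were scanned in the RefSeq sequence of GRCm38. Promoters, loci and 1-kb windows with a mean signal of at least 0.1 were tested with limma 3.58.1 (R 4.3.3) on log2(signal + 0.5), with a trend, Benjamini-Hochberg adjustment over all features of the kind and a threshold of 0.05; the site caller and the limma step were tested on simulated data. Python 3.11.15 and numpy 2.4.6 were used.

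The ChIP replicates are separate pools of ovaries, and for the inputs nothing read here says so. The limma standard errors and p-values draw the variance of each feature toward a trend over all features of its kind. They therefore do not measure the spread of the libraries at a single feature alone. Genes named are the 8 genes, the nearest protein-coding start of each site, pathway genes with a site, and the 3 genes whose strongest site was most similar in signal to the strongest of the 8. 1 gene of the planned pathway list is not reported here. The 8 genes, the pathway list and the tests were chosen with earlier results of these data known. Alternatives covered window, fold, flank, input, pseudocount, filter, scaling and leaving out each library.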

Additional observations from a re-analysis of the deposited data

How the results depend on the processing

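The count of 4 sites, each at a different gene, was the same with 400-bp windows, with all 3 ChIP libraries required, with the input floor doubled, without any 1 ChIP library and with a local criterion of 4 times the mean of 10 kb. The genes with a site were the same 4 under each of these. With the input floor doubled, the fold of the Gli2 site went from 10.5 to 5.41, with 2 libraries over 4-fold, below that of Dhh (5.91). At a fold of 8, 3 sites remained, without that of Dhh. At a fold of 3 there were 9 sites at 6 genes, adding Ptch1 and Smo. With 10 kb on each side, 1 site remained at 1 gene, and with 100 kb there were 6 sites. Leaving out 1 library gave 4 to 7 sites, with 7 without Input 1 and 5 without Input 2, at 5 genes in both cases with Smo added. Against the input of the same track-name set, an alternative chosen after seeing the data, there were 6 sites at the same 4 genes. The median over the 8 genes of the strongest window's fold, 4.78, became 3.81 with 400-bp windows, 2.41 with 10 kb on each side and 4.37 to 6.19 with 1 library left out; the local criterion gave no value for genes without such a window. The causes were not tested.

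The number of sites with an ERE match, 1, was 0 at 1 mismatch or none, and 1 in 400 bp and in sites called in all 3 ChIP libraries. The count of 1-kb windows higher in ChIP was 2 or 3 under every setting, but not always of the same windows. The second Gli1 window also missed the threshold with a pseudocount of 1 (limma adjusted p = 0.067), without the filter (0.0614) and with the replicate number as a block (0.0501). With that block and without ChIP 3 the count stayed at 3, so it held a window not called in the main fit. Which window that was is not given here. The replicate numbers 1 and 2 are shared by ChIP and input, with correlations of deviations of 0.0362 and -0.0111, so the numbers were not taken to pair the libraries. No input has replicate number 3, so differences with the replicate block equal those without ChIP 3, as at the Dhh promoter (-0.1543 in both). That block gave 8 of 1479 windows lower in ChIP where there had been 0, while 0.132% of all windows in the genome were then lower. It gave 1 called locus (Gli2) where there had been 0, while 33.3% of all loci were lower and 9.49% higher, and no called promoter. Leaving out 1 library gave 0 to 4 called loci, with 4 lower without ChIP 3, where 45.9% of all loci were lower.

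Signs changed at differences that were not called. Dividing each library by its median, where the median over all promoters is otherwise -0.13, turned the promoters of Dhh (0.0619), Ihh (0.0759), Gli2 (0.0930) and Hhip (0.0736) and the loci of Ihh (0.0645), Ptch1 (0.0103), Gli3 (0.0605) and Hhip (0.0580) on the log2 scale. A pseudocount of 1 turned the Ihh locus (6.1e-05), the replicate block turned the Gli3 and Hhip loci (0.0093 and 0.0097), and the track-name set as a term, also added after seeing the data, turned the Gli3 locus (0.0036). With 1 library left out, the promoter differences ran from -0.265 to 0.107 at Gli2, -0.277 to 0.0812 at Ihh and -0.168 to 0.0311 at Hhip, and the locus differences from -0.031 to 0.026 at Ihh, -0.0129 to 0.0093 at Gli3 and -0.0101 to 0.0097 at Hhip. Tracks without tag counts limit every value here, since the counting error of a weak window cannot be computed.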

Other observations

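The Ihh window also held a match to the glucocorticoid response element, the palindromic element of the receptors for glucocorticoids, androgens and progesterone, which was searched after the Ihh sequence had been seen. The match had 1 mismatch in 12 fixed positions and covered chr1:74977104-74977118, so it contains the ERE match with 2 mismatches. At most 1 mismatch was present in 4.58% of the 4870 sites and in 0.511% of all 200-bp tiles. The Gli2 window had 2 mismatches at best, a limit met by 24.7% of the sites and 5.5% of the tiles, and the Gli1 and Dhh windows had 4. A match of letters does not show which receptor is bound there, and no other receptor was measured in these libraries.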
